A study of Mus musculus with 18 samples.

Results

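The comparison set macrophages from RIPK1 T169A mice against macrophages from B6 mice after 2 hours of LPS together with 5z7, over genes of chromosomes 1 to 19. It used 6 of the 18 libraries of the study, 3 from T169A cells (columns 12, 15 and 18 of the deposited counts) and 3 from B6 cells (columns 3, 6 and 9). T169A denotes mice whose RIPK1 has the T169A change, a threonine replaced by alanine, and B6 denotes C57BL/6J mice. Cells of both genotypes were bone marrow-derived macrophages, grown for 7 days in medium with 20% serum and 30% supernatant of L929 cells, which supplies the growth factor M-CSF, and then replated. LPS, from the outer membrane of bacteria, activates the receptor TLR4. The labels leave 5z7 unexplained, a name commonly used for the TAK1 kinase inhibitor 5Z-7-oxozeaenol. The other 4 groups, cells of each genotype without stimulation or with LPS alone for 2 hours, entered the same statistical fit with 3 libraries each. The labels give no age, sex or breeding of the mice, and leave unsaid if a group's 3 libraries stem from separate animals or cultures. The p-values therefore cover only the variation among these libraries, which may be technical.

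RIPK1 sits downstream of TNF receptor 1 and, through the adaptor TRIF, of TLR4. It serves as a scaffold for NF-kB signalling, and its kinase activity can start cell death through caspase-8 or through RIPK3 and MLKL. TAK1 carries the TLR4 signal to NF-kB and the MAP kinases, and macrophages given LPS while TAK1 is blocked are known to die in a RIPK1-dependent manner.

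The altered codon is shown to place the mutation that separates the groups. In the GENCODE M21 annotation of the build GRCm38 it lies in exon 5 of Ripk1, at chr13:34015171-34015173 on the plus strand, and covers bases 505 to 507 of a coding sequence of 656 codons. The reference sequence around it reads as follows, with the altered codon, which encodes threonine in the reference, in capitals.
Ripk1 altered codon: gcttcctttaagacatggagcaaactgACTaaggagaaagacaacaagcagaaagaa
Gene counts do not show a single codon, so they do not tell which allele a library carries. Ripk1 itself had 80.5, 65.3 and 67.9 CPM (counts scaled to library size with TMM factors) in T169A libraries 12, 15 and 18, against 79.3, 81.0 and 75.1 CPM in B6 libraries 3, 6 and 9. The groups overlapped, and the log2 fold change was -0.14 ± 0.12 (SE; edgeR quasi-likelihood test, adjusted p = 0.77).

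Depth was 28.5, 20.4 and 17.0 M counts in the T169A libraries and 23.7, 18.1 and 18.1 M in the B6 libraries. Before TMM scaling, 3 counts correspond to 0.105 to 0.176 CPM. The macrophage markers were abundant: the 13 genes of that list summed to between 45501 and 48194 CPM in T169A libraries and between 43254 and 46278 CPM in B6 libraries, and no member passed the test. Markers of other cells were present at lower levels. The monocyte list summed to 530.4 to 613 CPM in T169A and 555 to 568 CPM in B6 libraries, the neutrophil list to 183 to 219 CPM in T169A and 173 to 191 CPM in B6 libraries, and the erythroid and megakaryocyte list to 239 to 292 CPM in T169A and 183 to 209 CPM in B6 libraries. In that last list 7 of 13 genes, the haemoglobin genes among them, had no count in the 6 libraries, and most of its sum was the platelet chemokine gene Pf4, at 267 ± 27.3 CPM in T169A and 190.2 ± 13.2 CPM in B6 cells (SD, n = 3 each). The T and NK cell list summed to 5.53 to 6.47 CPM in T169A and 6.11 to 8.32 CPM in B6 libraries, with 5 of 12 genes at 0, Cd3e and Cd8a among them. The B-cell list summed to 19.98 to 23.1 CPM in T169A and 18.5 to 25.6 CPM in B6 libraries, with 6 of 12 genes at 0. None of these lists had a member past the test, and their part in the results was not tested. Il1b, a main product of LPS-activated macrophages, stood at 724 ± 71.7 CPM with LPS/5z7 and 7646 ± 651 CPM with LPS in T169A cells (SD, n = 3 each), a log2 change of -3.40 ± 0.24 (adjusted p = 5.37e-08). In B6 cells it stood at 729 ± 7.95 and 7962 ± 918 CPM (-3.45 ± 0.24, adjusted p = 6.42e-08), a drop in both genotypes. The genotypes also differed in sex-linked genes. Xist, the RNA that silences an X chromosome in females, lay at 0.568, 0.0512 and 0.368 CPM in T169A libraries and at 1062, 1125 and 1289 CPM in B6 libraries. The Y-chromosome genes Ddx3y, Eif2s3y, Kdm5d and Uty together summed to between 193 and 219 CPM in T169A libraries and to at most 0.178 CPM in B6 libraries. Genotype and the sex of the cells cannot be told apart in any of the following differences. In bulk samples, fewer cells of a type and less RNA per cell cannot be told apart either.

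With LPS/5z7, 14 autosomal genes differed between the genotypes. Of these, 11 were lower and 3 higher in T169A cells, out of 12411 autosomal genes tested (14 of 12411 is 0.113%, with 0.0886% lower and 0.0242% higher; adjusted p under 0.05 over all 13068 genes tested). The lower genes included the TGF-beta family ligand gene Gdf3, the surface receptor genes Axl, Marco and Cx3cr1, and the arginine transporter gene Slc7a2. The higher genes were Camk2b, Lrmda and Gm16556. For all 14 the 3 T169A libraries lay on 1 side of the 3 B6 libraries, as they did for 23.2% of all autosomal genes. The 14 were called on these same values, so their separation is no further support. At an unadjusted p under 0.05 there were 715 autosomal genes (5.76%), and the median log2 fold change over all autosomal genes was 0.00358. A further 10 autosomal genes had adjusted p-values between 0.05 and 0.1, the nearest of them Tagln (0.0505), Colec12 (0.0538) and Tmem86a (0.0561), by the edgeR quasi-likelihood test. The 14 genes were spread over 11 chromosomes, and the only one on chromosome 13 with Ripk1 was Tgfbi, 22.6 Mb away in GRCm38.

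**Figure D1:**
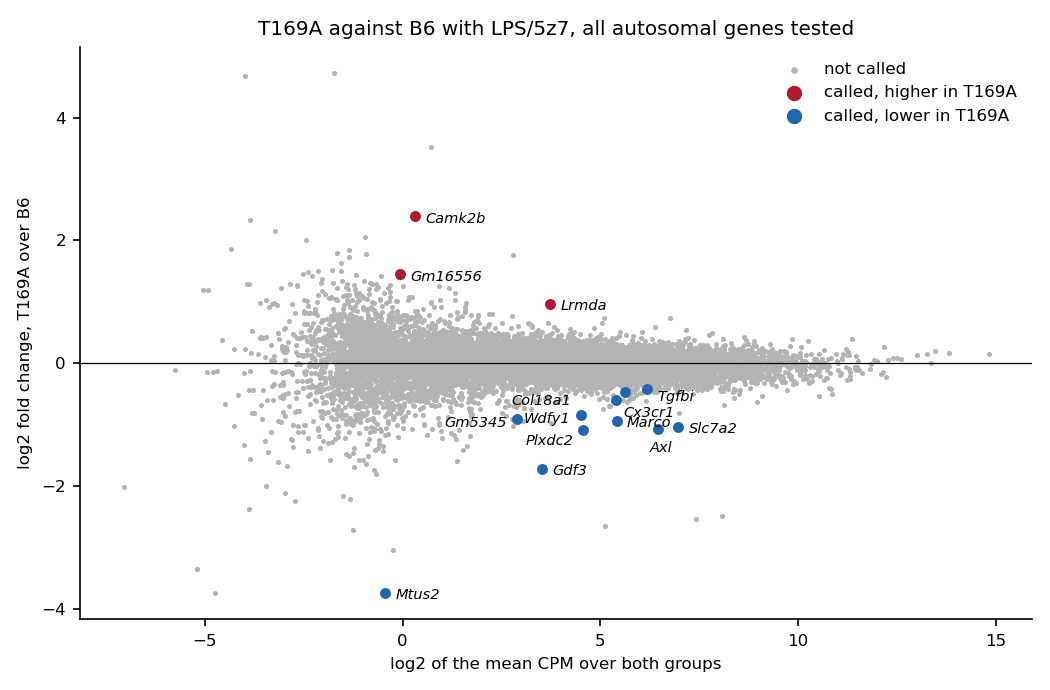
Log2 fold change, T169A over B6 with LPS/5z7 (vertical axis), against the log2 of the mean CPM over both groups (horizontal axis), 1 point per autosomal gene tested. Coloured points are the 14 genes called, 3 higher (red) and 11 lower (blue) in T169A cells, and the grey points at about -2.5 with high levels are Lars2, Mir6236 and Gm15564, which did not pass the test.

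Among ligands and matrix proteins, Gdf3, which encodes a member of the TGF-beta family, had 5.03, 5.18 and 5.88 CPM in T169A libraries, against 18.5, 17.9 and 16.5 CPM in B6 libraries. No T169A library came near a B6 library, and the gene was 3.31-fold lower in T169A cells (log2 fold change -1.73 ± 0.11, SE; edgeR quasi-likelihood test, adjusted p = 6.87e-08). Tgfbi, a matrix protein gene named for its induction by TGF-beta, had 63.0, 60.4 and 62.7 CPM in T169A libraries and 87.9, 78.4 and 82.5 CPM in B6 libraries. The gap was narrower than for Gdf3, with a log2 fold change of -0.42 ± 0.07 (adjusted p = 0.0111). Col18a1, encoding a basement membrane collagen, had 40.8, 41.2 and 41.5 CPM in T169A libraries and 55.9, 55.9 and 60.5 CPM in B6 libraries. The T169A libraries were within 1 CPM of each other and below B6 (-0.48 ± 0.08, adjusted p = 0.00981), and Slc19a1 overlaps the gene on the opposite strand.

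Gdf3 and Tgfbi were the only 2 called among 27 tested genes of the TGF-beta and BMP list, and both were lower. Over all autosomal genes 0.0886% were called lower. The TGF-beta and BMP list, like the others, was chosen with earlier results of these data known, so its called members are no separate evidence. The median of the list was -0.08, beside 0.00358 for all autosomal genes. Its receptors and inhibitors did not pass the test: Tgfbr1, the type I TGF-beta receptor gene, averaged 486 ± 43.7 CPM in T169A cells and 573 ± 50.0 CPM in B6 cells (SD, n = 3 each; -0.24 ± 0.20, adjusted p = 0.768), and Skil, a feedback inhibitor of SMAD proteins, averaged 519 ± 36.7 CPM in T169A cells and 608 ± 27.8 CPM in B6 cells (-0.23 ± 0.19, adjusted p = 0.767).

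A group of 3 receptors of the macrophage surface was lower in T169A cells. Axl, a receptor tyrosine kinase that binds apoptotic cells through its ligand Gas6, had 64.4, 51.7 and 54.1 CPM in T169A libraries and 118, 124 and 119 CPM in B6 libraries. No T169A library reached the lowest B6 library, and Axl was 2.12-fold lower in T169A cells (-1.08 ± 0.13, adjusted p = 4.55e-04). Marco, a scavenger receptor for bacteria and particles, had 29.5, 26.0 and 32.0 CPM in T169A libraries and 54.6, 54.4 and 59.7 CPM in B6 libraries. It was 1.93-fold lower in T169A cells, with no overlap (-0.95 ± 0.14, adjusted p = 0.00362). Cx3cr1, the receptor for the chemokine fractalkine, had 32.8, 31.4 and 35.4 CPM in T169A libraries and 55.4, 46.5 and 49.5 CPM in B6 libraries. All T169A libraries were below all B6 libraries (-0.61 ± 0.09, adjusted p = 0.00229). Its annotated span overlaps other genes, Csrnp1 on the same strand and Wdr48 on the opposite strand among them, and the strand setting of the counting is not given, so reads of neighbours could be part of its count.

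These 3 were the called members among 39 tested genes of the scavenger and surface receptor list, and the other 36 did not pass. Over all autosomal genes 0.0886% were called lower. The median of that list was -0.04. Colec12, a scavenger receptor of the collectin family that DESeq2 and the 6-library fit called lower, came next with 44.3, 42.1 and 40.0 CPM in T169A libraries and 66.2, 65.6 and 61.1 CPM in B6 libraries (-0.61 ± 0.12, adjusted p = 0.0538). The 6-library fit also called Lrp1 lower (-0.40 ± 0.06, edgeR adjusted p = 0.00924, and 0.766 in the fit of all 18). Over all autosomal genes that fit called 1.37% lower. Gas6, the ligand of Axl, lay the other way, at 335, 342 and 332 CPM in T169A libraries and 276, 281 and 300.4 CPM in B6 libraries, without passing the test (0.23 ± 0.09, adjusted p = 0.726). The abundant receptor genes Csf1r, for M-CSF, and Gpnmb did not pass, with log2 fold changes of -0.07 ± 0.08 and 0.04 ± 0.11.

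The windows before the start sites of Axl and Marco are shown as those of the 2 receptor genes with the larger decreases. Both carry the letters GAGGAA, found within the DNA element of the macrophage factor PU.1. RefSeq windows of 250 bases before the start, on GRCm38.p6, were found for 6 of the 11 lower genes (Axl, Marco, Cx3cr1, Col18a1, Tgfbi and Mtus2). These genes have 8 windows, of which 2 held GAGGAA on either strand, a share near the 23.3% of all 32851 windows, and the window of Lrmda, which was higher in T169A cells, held it too. The AP-1 letters TGANTCA were in 0 of the 8 windows and in 6.75% of all windows. The windows below are written 5' to 3' on the strand of the gene, which is the minus strand for both, at chr7:25788734-25788983 for Axl and chr1:120505025-120505274 for Marco, with the match or its reverse complement in capitals.
Axl: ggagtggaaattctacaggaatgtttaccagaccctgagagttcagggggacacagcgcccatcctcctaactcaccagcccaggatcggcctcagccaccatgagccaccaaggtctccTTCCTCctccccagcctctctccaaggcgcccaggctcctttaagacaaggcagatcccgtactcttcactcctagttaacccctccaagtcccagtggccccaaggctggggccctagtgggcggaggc
Marco: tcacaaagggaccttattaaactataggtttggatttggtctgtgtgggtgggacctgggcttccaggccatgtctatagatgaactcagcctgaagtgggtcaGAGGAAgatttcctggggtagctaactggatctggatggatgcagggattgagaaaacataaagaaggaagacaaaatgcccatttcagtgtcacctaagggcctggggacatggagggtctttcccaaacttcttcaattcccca

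Slc7a2, a transporter of arginine that LPS induces in macrophages, had 89.4, 80.6 and 76.5 CPM in T169A libraries and 169.8, 177 and 158 CPM in B6 libraries. It was 2.05-fold lower in T169A cells (-1.03 ± 0.17, edgeR adjusted p = 0.00981). Slc7a2 was the only called gene among 29 tested inflammatory effectors, beside 0.0886% called lower over all autosomal genes. The 6-library fit called Slc7a2 and also Mmp14 lower (Mmp14 -0.39 ± 0.07, edgeR adjusted p = 0.0205), beside 1.37% called lower there over all autosomal genes. Wdfy1, which encodes an endosomal protein of TLR3 and TLR4 signalling, had 17.2, 15.5 and 16.2 CPM in T169A libraries and 28.2, 30.7 and 28.8 CPM in B6 libraries. It was 1.79-fold lower, and the groups were far apart beside their spread (-0.84 ± 0.10, adjusted p = 2.03e-04). Mrpl44 overlaps it on the opposite strand.

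Plxdc2, encoding a transmembrane protein with a plexin domain, had 13.8, 15.6 and 16.3 CPM in T169A libraries and 30.8, 29.5 and 37.2 CPM in B6 libraries. It was 2.14-fold lower (-1.10 ± 0.12, adjusted p = 8.27e-05). Mtus2, encoding a microtubule-associated protein, was near the limit of detection in T169A cells, with 0.0378, 0.154 and 0.123 CPM, against 1.40, 1.48 and 1.25 CPM in B6 cells. These T169A values rest on 6 counts over 3 libraries, beside 77 counts in B6 libraries, a 14.3-fold lower level whose exact 95% counting interval runs from 6.28 to 40.2 (edgeR adjusted p = 5.68e-05). Gm10167 overlaps it on the opposite strand. Gm5345, a processed pseudogene, had 5.60, 4.46 and 5.45 CPM in T169A libraries and 9.41, 11.1 and 8.62 CPM in B6 libraries (-0.91 ± 0.17, adjusted p = 0.0401), and since its parent gene can share reads with it, this value is uncertain.

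Of the 3 higher genes, Camk2b, encoding the beta chain of a calcium-dependent kinase, had 2.01, 2.36 and 1.899 CPM in T169A libraries and 0.407, 0.355 and 0.416 CPM in B6 libraries. Low in both, it was 5.24-fold higher in T169A cells (2.39 ± 0.31, adjusted p = 7.04e-04). Lrmda, named for melanocyte differentiation, had 16.04, 17.1 and 19.8 CPM in T169A libraries and 9.997, 7.81 and 9.10 CPM in B6 libraries (0.97 ± 0.16, adjusted p = 0.00981). Gm16556, a non-coding transcript whose span overlaps other genes, Gm8459 on the same strand among them, had 1.21, 1.43 and 1.53 CPM in T169A libraries and 0.452, 0.533 and 0.535 CPM in B6 libraries (1.45 ± 0.26, adjusted p = 0.0274).

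**Figure D2:**
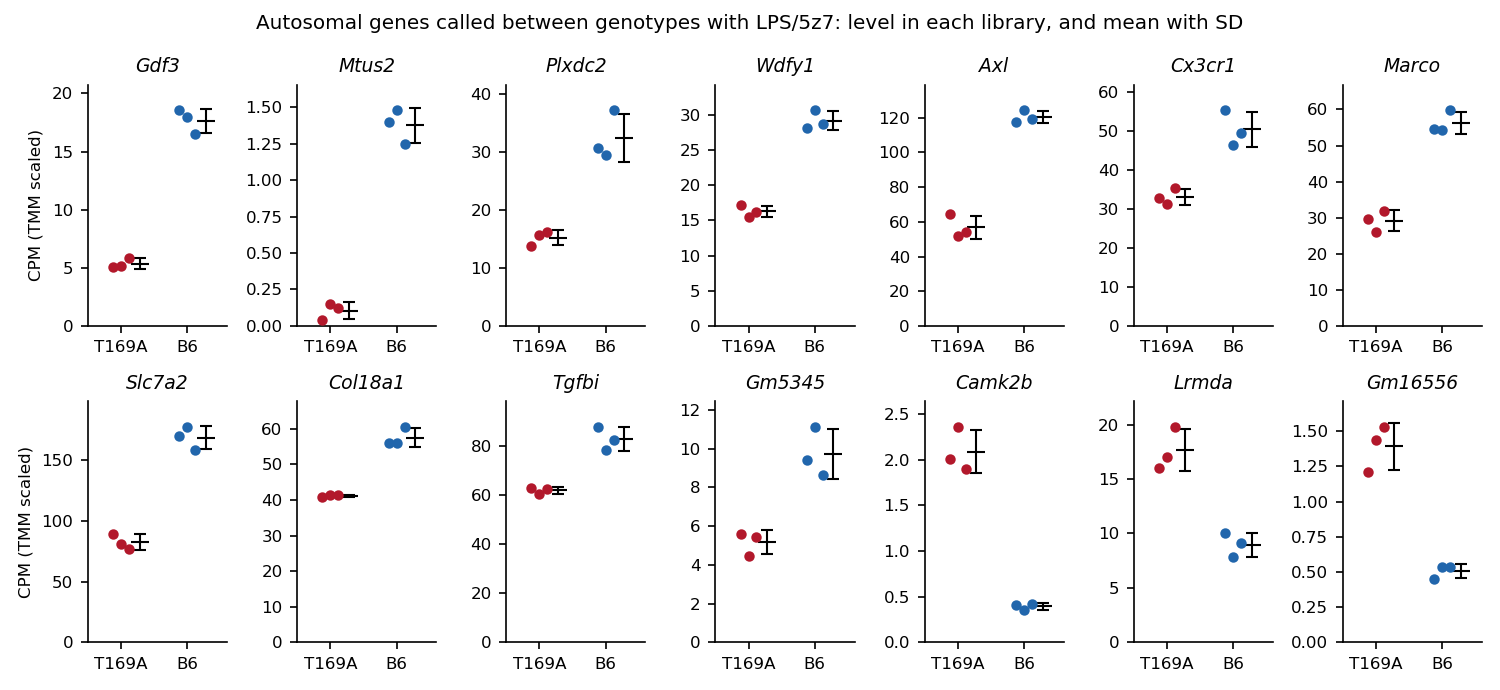
Level (CPM, scaled by TMM) of each of the 14 called genes in every LPS/5z7 library, T169A in red and B6 in blue, with the mean and SD of 3 libraries beside the points. In every panel the 3 T169A libraries lie on 1 side of the 3 B6 libraries, as for 23.2% of all autosomal genes. The vertical axes start at 0.

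Of these calls, 8 (Gdf3, Mtus2, Plxdc2, Wdfy1, Axl, Camk2b, Cx3cr1 and Marco) passed under all 14 alternative settings, which include leaving out any 1 of the 6 libraries. The other 6 lost the call when single libraries were left out, with the direction kept. Slc7a2 lost it without T169A library 15 or 18 or B6 library 3 or 6 (adjusted p up to 0.119). Col18a1 lost it without any 1 of T169A 12, 15 and 18 and B6 6 and 9 (up to 0.0899), and Tgfbi without T169A 12, 15 or 18 or B6 3 or 9 (up to 0.143). Lrmda lost it without T169A 18 or B6 6 or 9 (up to 0.0929), Gm16556 without T169A 15 or 18 or any B6 library (up to 0.261), and Gm5345 without any 1 of the 6 (up to 0.294). Without a filter on low counts, Tgfbi (edgeR adjusted p = 0.235), Col18a1 and Gm16556 also lost the call. Gm5345 also lost it when adjusted over autosomal genes alone.

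Most of the 14 genes differed in the same direction without 5z7. In the LPS libraries 13 of them were called in the same direction, where 22 autosomal genes were called in all (0.177%), and in unstimulated cells 10 were called, again of 22 (0.177%). The titles give the same replicate letters to all 3 conditions of a genotype (A to C for B6 and D to F for T169A), so cells of 1 source may stand behind the 3 comparisons, and they are not independent of each other. Gdf3 had log2 fold changes of -1.80 ± 0.11 unstimulated, -1.49 ± 0.11 with LPS and -1.73 ± 0.11 with LPS/5z7, and Wdfy1 -0.86 ± 0.09, -0.90 ± 0.10 and -0.84 ± 0.10. Axl had -0.89 ± 0.13, -1.07 ± 0.13 and -1.08 ± 0.13, and Camk2b 2.73 ± 0.29, 2.58 ± 0.32 and 2.39 ± 0.31, in the same order. The 3 values of each of these genes lay within a few SE of each other.

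Slc7a2, Gm5345 and Lrmda were called with LPS and with LPS/5z7 but not in unstimulated cells. Slc7a2 was low without stimulation, at 3.22, 4.04 and 3.26 CPM in T169A libraries and 4.82, 5.53 and 3.12 CPM in B6 libraries, which overlapped (-0.38 ± 0.21). Gm5345 was at most 0.618 CPM there in T169A and 0.414 CPM in B6 libraries. Lrmda already leaned the same way, with 11.1, 9.74 and 12.3 CPM in T169A libraries and 6.33, 6.03 and 9.63 CPM in B6 libraries (0.61 ± 0.16, adjusted p = 0.275). Gm16556 was called with LPS/5z7 and in neither other condition. Its level was 1.24, 1.18 and 0.938 CPM in T169A and 0.940, 0.857 and 1.08 CPM in B6 cells without stimulation, and 0.899, 1.09 and 1.29 CPM in T169A and 0.840, 0.827 and 1.40 CPM in B6 cells with LPS.

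The difference between conditions was tested directly. No autosomal gene passed for the genotype difference with LPS/5z7 minus that with LPS (0 of 12411, 0%; 138 at an unadjusted p under 0.05, 1.11%), nor for LPS/5z7 minus unstimulated (0 of 12411, 0%; 428 at an unadjusted p under 0.05, 3.45%). Among the 14 genes, Gm16556 alone had an unadjusted p under 0.05 against LPS, with a difference of 1.31 ± 0.36 that did not pass after adjustment. Against unstimulated cells Gm16556 (1.21 ± 0.35), Tgfbi (0.28 ± 0.10), Gm5345 (-1.17 ± 0.41) and Slc7a2 (-0.65 ± 0.27) had an unadjusted p under 0.05, each with an adjusted p of 0.83. DESeq2 called 0 genes for the first difference and 1 for the second, the prostaglandin E synthase gene Ptges (log2 difference 0.79, DESeq2 adjusted p = 0.0083). Ptges had a log2 fold change of -0.08 with LPS/5z7 (edgeR adjusted p = 0.815) and -0.87 in unstimulated cells (edgeR adjusted p = 0.00177). By edgeR, no gene called in 1 condition was shown to differ between conditions.

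**Figure D3:**
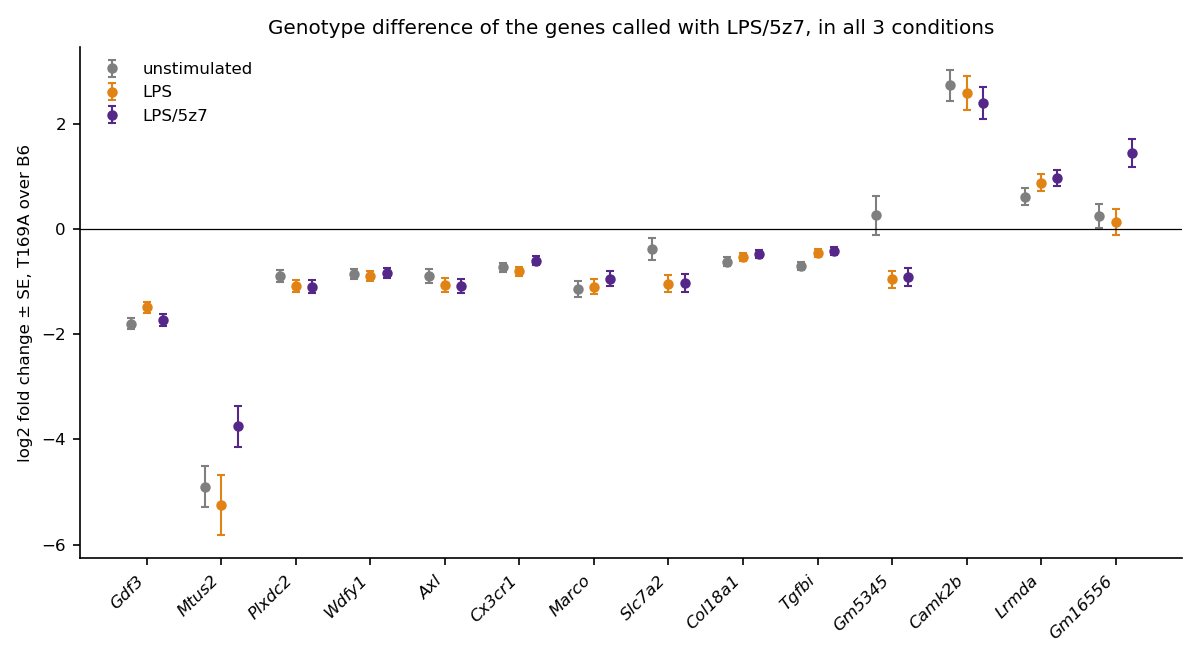
Log2 fold change, T169A over B6, with its SE, for the 14 genes called with LPS/5z7 (horizontal axis), in unstimulated cells (grey), with LPS (orange) and with LPS/5z7 (purple). For 13 of the 14 genes the 3 values share a sign, Gm5345 being the exception, and Gm16556 is at 0.24 unstimulated, 0.14 with LPS and 1.45 with LPS/5z7. T169A counts of Mtus2 are at or near 0, so its position depends on the prior count of the fit.

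The genes that carry the RIPK1 and TLR4 signals had no called member. Of 34 tested genes of the cell death machinery none passed, with a median of 0.01 and fold changes from -0.38 to 0.37. Ripk3, the kinase that acts with RIPK1 in necroptosis, was nearest at 11.8, 10.9 and 11.9 CPM in T169A libraries and 9.41, 9.94 and 7.37 CPM in B6 libraries (0.37 ± 0.13, adjusted p = 0.657). Casp8 had 104, 88.8 and 83.0 CPM in T169A and 91.7, 92.6 and 88.3 CPM in B6 libraries (0.02 ± 0.08), with a 95% interval from -0.16 to 0.19. Map3k7, the gene of TAK1, had 73.7, 65.4 and 68.1 CPM in T169A and 67.4, 75.0 and 73.8 CPM in B6 libraries (-0.06 ± 0.12), and the 34 tested genes of the TLR4 and TAK1 list had a median of -0.05.

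The inflammatory outputs were likewise without a call. None of 23 cytokine genes, 18 chemokine genes, 23 NF-kB genes or 39 immediate early genes passed, with medians of 0.10, -0.03, 0.01 and 0.06. Other fits called 3 of these genes: Nr4a1, an immediate early transcription factor gene, was higher by DESeq2 (adjusted p = 0.0223) and in a fit on the 6 LPS/5z7 libraries alone (adjusted p = 0.0223). That fit, described further on, also called the chemokine genes Ccl6 higher (0.39 ± 0.08) and Ccl22 lower (-0.32 ± 0.07). Over all autosomal genes it called 0.385% higher and 1.37% lower. Il1b had 806, 691 and 674 CPM in T169A and 737, 722 and 727 CPM in B6 libraries, a log2 fold change of -0.01 ± 0.22 whose 95% interval ran from -0.47 to 0.45. Tnf had 2005, 1978 and 1978 CPM in T169A and 2151, 2235 and 2099 CPM in B6 libraries, below in all 3 T169A libraries and yet within the error of the fit (-0.12 ± 0.19, interval from -0.53 to 0.28). Il6 varied more, with 22.8, 8.66 and 10.8 CPM in T169A and 24.3, 25.5 and 13.9 CPM in B6 libraries (-0.57 ± 0.29, adjusted p = 0.766). The 95% interval of Il6 ran from -1.19 to 0.05.

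**Figure D4:**
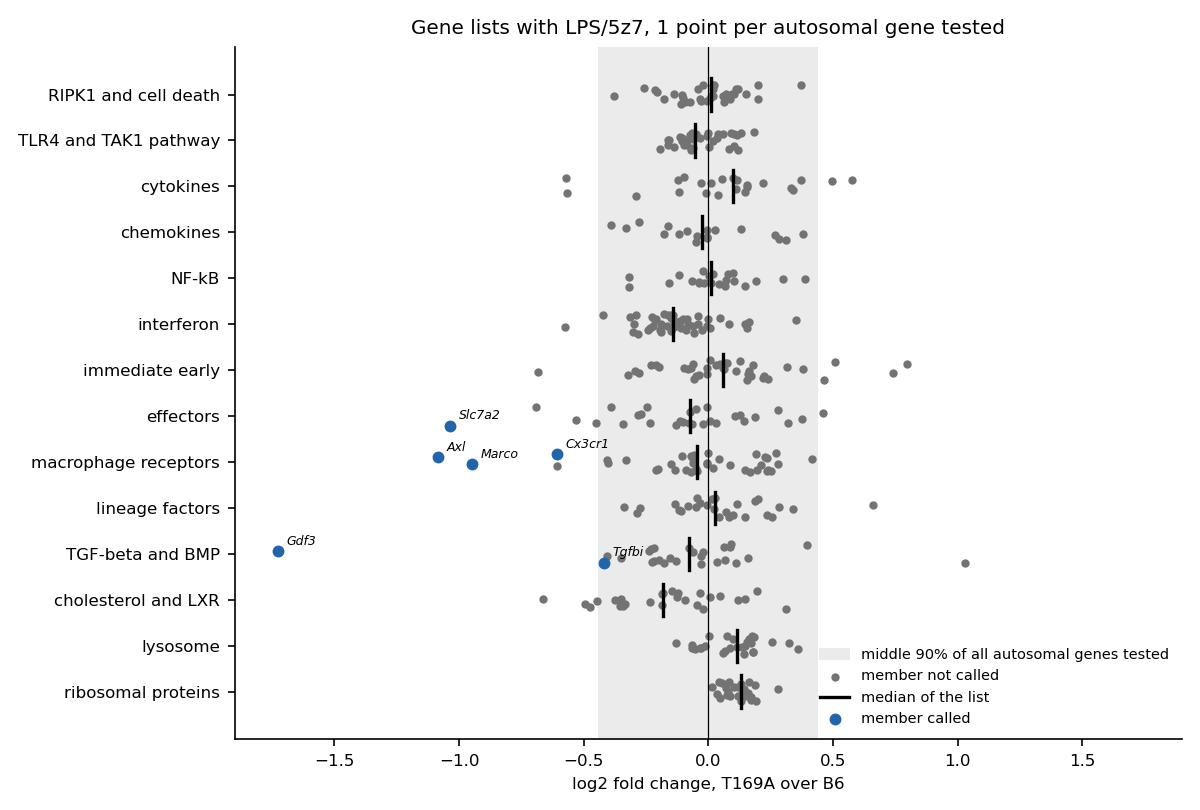
Log2 fold change, T169A over B6 with LPS/5z7 (horizontal axis), of the autosomal genes tested in 14 lists (rows), with the median of each list as a black bar and the range that holds the middle 90% of all autosomal genes in grey. Blue points are called genes (Slc7a2, Axl, Marco, Cx3cr1, Gdf3 and Tgfbi), and in the lists of cell death, TLR4 and TAK1, cytokines, chemokines, NF-kB and interferon every point is grey.

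The interferon genes showed a spread between T169A libraries that the group mean hides. The 48 genes of this list summed to 28727, 19695 and 20108 CPM in T169A libraries 12, 15 and 18, against 25209, 25349 and 25630 CPM in B6 libraries. Library 12 lay above all B6 libraries and libraries 15 and 18 below all of them, while the 3 B6 sums were nearly equal. In library 12, 32 of the 48 genes were above all 3 B6 libraries and 2 below, whereas 42 were below all B6 libraries in library 15 and 38 in library 18. Over all autosomal genes, library 12 was above all B6 libraries for 27% and below for 28.2%. The shares were 31.2% above and 31.3% below for library 15, and 33.4% above and 32.7% below for library 18. The 12 monocyte markers moved with this order: 9 were above all B6 libraries in library 12 and 0 below, and 7 were below in each of libraries 15 and 18, with medians of 0.23, -0.21 and -0.13 in libraries 12, 15 and 18 relative to the B6 mean. Of the 9 tested neutrophil markers, 7 were above all B6 libraries in library 12, 2 in library 15 and 5 in library 18. Those below all B6 libraries were 0, 1 and 0, in the same order. The part of either list in the interferon values was not tested. Rsad2, an antiviral enzyme gene, had 3479, 1781 and 1879 CPM in T169A libraries and 2783, 2828 and 2637 CPM in B6 libraries. Ifit1, another interferon-induced gene, had 1658, 932 and 965 CPM in T169A and 1381, 1379 and 1301 CPM in B6 libraries, and Ifnb1, interferon beta itself, had 12.1, 7.63 and 9.37 CPM in T169A and 14.8, 13.9 and 10.5 CPM in B6 libraries. Rsad2 and Ifit1 followed the order of the sum, and Ifnb1 did not rise above B6 in library 12. None of the 48 genes passed the test, and the list had a median log2 fold change of -0.14 with all 6 libraries and -0.34 without library 12, also with no call. With LPS alone the T169A libraries 11, 14 and 17 summed to 33235, 25431 and 23715 CPM and the B6 libraries 2, 5 and 8 to 31233, 30400 and 30182 CPM, again with 1 T169A library above and 2 below B6. Cxcl10, a chemokine that interferon induces, had 3945, 2450 and 2591 CPM in T169A and 3420, 3457 and 3187 CPM in B6 libraries with LPS/5z7.

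Genes of the cholesterol and LXR list leaned below B6 without a call. Of its 27 tested genes none passed, 16 had all 3 T169A libraries below all B6 libraries and 2 above (12.4% and 10.9% of all autosomal genes), and the median was -0.18. Idi1, an isomerase of the pathway, had 5.94, 6.35 and 5.57 CPM in T169A and 9.18, 8.88 and 10.3 CPM in B6 libraries (-0.66 ± 0.14, adjusted p = 0.0828). Abcg1, a cholesterol exporter and LXR target, had 137, 133 and 131 CPM in T169A and 113, 108 and 103 CPM in B6 libraries (0.31 ± 0.12, adjusted p = 0.703). For Idi1 all T169A libraries lay below all B6 libraries, and for Abcg1 above them. By DESeq2, Idi1 and the synthesis genes Cyp51 and Sc5d were among the genes called lower. The fit on the 6 libraries alone called 4 genes of the list lower and 1, Abcg1, higher. Over all autosomal genes that fit called 1.37% lower and 0.385% higher.

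Lysosomal and ribosomal protein genes leaned the other way. Of 27 lysosomal genes 11 had all 3 T169A libraries above B6 and 0 below, with a median of 0.12, led by the protease gene Ctsl with 1353, 1337 and 1407 CPM in T169A and 1121, 1070 and 997 CPM in B6 libraries (0.36 ± 0.10, adjusted p = 0.342). Ctsl was called higher by DESeq2 (adjusted p = 0.0314) and in the 6-library fit (adjusted p = 0.0189). Of 30 ribosomal protein genes 11 were above and 0 below, with a median of 0.13, and none passed. Over all autosomal genes 10.9% were above and 12.4% below. Ribosomal protein genes took 1.84%, 1.99% and 2.07% of counts in T169A libraries and 1.82%, 1.81% and 1.69% in B6 libraries.

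Differences over all genes went with transcript length. Over all autosomal genes, 2883 (23.2%) had libraries that did not overlap between the genotypes with LPS/5z7, compared with 10.4% with LPS and 8.4% unstimulated. Genes were split into 5 equal bins by longest transcript. In the bin with the shortest transcripts the median log2 fold change was 0.14, with 534 genes above and 85 below B6, and in the bin with the longest it was -0.15, with 71 above and 852 below. The medians of the shortest bin were 0.07, 0.15 and 0.20 in T169A libraries 12, 15 and 18 relative to the B6 mean, and those of the longest bin -0.09, -0.15 and -0.20. With LPS the medians of the shortest and longest bins were 0.12 and -0.11, and in unstimulated cells -0.09 and 0.05, the reverse order. With a correction for transcript length the median of the ribosomal protein list was -0.02, that of the lysosomal list 0.06 and that of the cholesterol list -0.14, and in the cholesterol list Idi1 (lower) and Abcg1 (higher) then passed. The part of RNA quality or library preparation in this trend was not tested.

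**Figure D5:**
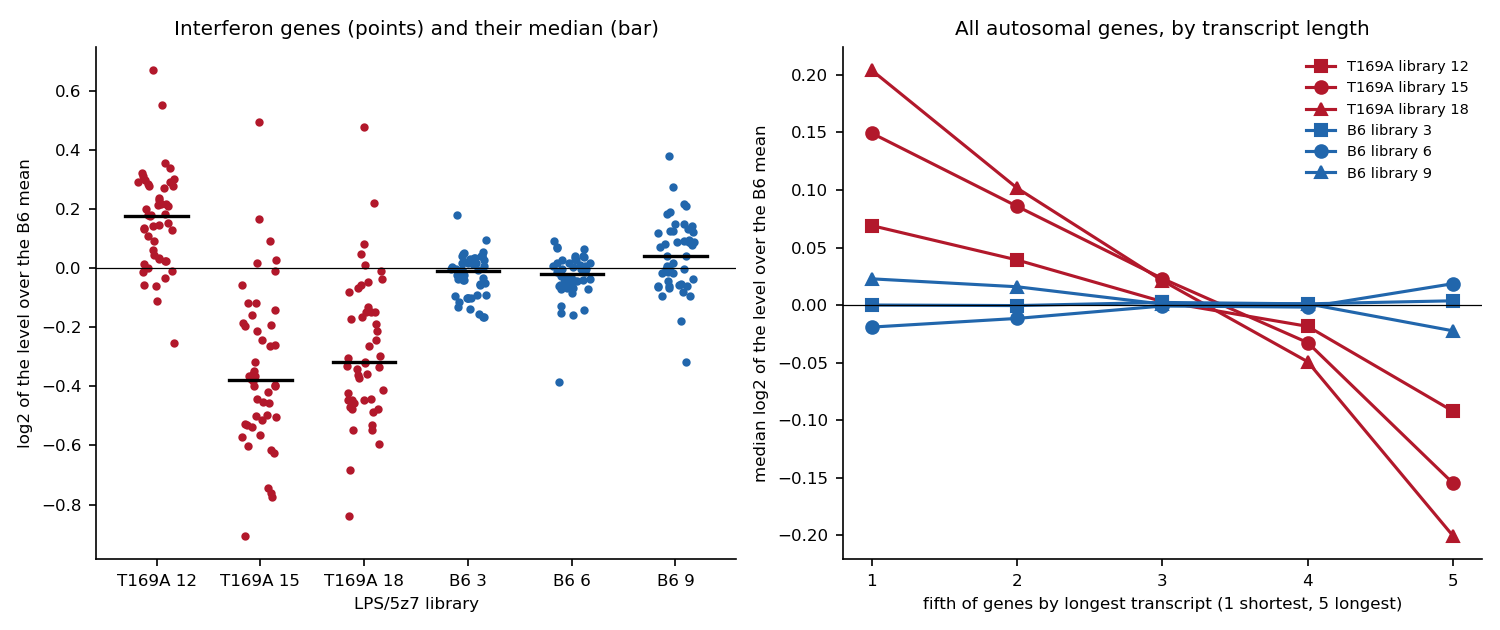
Left, log2 of the level over the B6 mean for the 48 interferon genes (points) and their median (bar) in each LPS/5z7 library; T169A library 12 lies above B6 and libraries 15 and 18 below. Right, the median of the same quantity over all autosomal genes in 5 bins by longest transcript, for each library. The 3 T169A lines fall from the shortest bin (0.07 to 0.20) to the longest (-0.09 to -0.20). The B6 lines together are centred near 0 by construction, since their own mean is the reference. The panel therefore shows only differences relative to that mean, between genotypes and among libraries.

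A fit on the 6 LPS/5z7 libraries alone called 201 of 11433 autosomal genes (1.76%), 44 higher (0.385%) and 157 lower (1.37%) in T169A cells, with the 14 genes above among them. The same kind of fit called 7 genes (0.0608%) on the 6 LPS libraries and 2 (0.0168%) on the 6 unstimulated libraries. The lower genes had a median longest transcript of 8760 bases and the higher genes 1683 bases, against 3302 bases for all genes of that fit, and with the length correction 53 genes were called (15 higher and 38 lower). Dst, a gene of a large cytoskeletal linker protein, averaged 91.6 ± 12.9 CPM in T169A cells and 162 ± 4.36 CPM in B6 cells, and Mt2, a metallothionein gene, 135 ± 10.6 CPM in T169A cells and 81.3 ± 10.9 CPM in B6 cells (SD, n = 3 each; adjusted p = 0.00145 and 0.00488 in the 6-library fit, 0.62 and 0.639 in the fit of all 18). The count also rested on single libraries: it was 2041 without T169A library 12, 31 without 15 and 25 without 18, and 27, 24 and 307 without B6 library 3, 6 and 9. Without library 12, interferon genes were called in the 6-library fit, mostly lower, with Ifit1, Rsad2 and Mx1 among the lower. They stand beside the 2041 autosomal genes called there in all. Library 12 was the T169A library above B6 in the interferon sum, so calls made without it are no separate support. With all 6 libraries none of the 48 interferon genes was called. Without library 12 the T169A spread came from libraries 15 and 18 alone, which were close to each other. Their chi-square per degree of freedom was 2.89, against 20.7 for libraries 12 and 15 and 20.3 for 12 and 18. In B6 cells the libraries 3 and 6, which remain without library 9, were likewise the closest. Their value was 5.17, against 17.8 for 3 and 9 and 11.7 for 6 and 9. How far this closeness accounts for the calls was not tested.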

How the data were processed

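RNA of cultured macrophages was isolated with TRIzol and made into directional libraries, per the labels' protocols. The deposited table holds raw gene counts. The submitters' processing notes name Trim Galore, STAR, featureCounts and the build GRCm39. Versions, the strand setting and the handling of multi-mapping reads are not given in the sources used here. A column's name shows its group and a running number, by which libraries are named, and cannot be tied to a single titled sample.

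Symbols came from GENCODE M21 (GRCm38), in which 52029 of 56953 IDs (91.4%) matched, with 99.8% of counts. The test was edgeR 4.0.16 (R 4.3.3): filterByExpr by group (13068 genes kept), TMM scaling and a robust quasi-likelihood fit of 6 group means over 18 libraries. Benjamini-Hochberg adjustment ran over all genes tested (threshold 0.05), and autosomal genes were described. SE was taken as the size of the log2 fold change over the root of its F value. Levels are CPM, not per length. The interval of the Mtus2 ratio and the floors cover counting error only. Intervals of log2 fold changes were built from the SE of the fit, so they also include variation among libraries.

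The comparison, lists and rules were chosen with earlier results of these data known. Named genes were up to 15 called genes in each direction whose libraries do not overlap and whose higher group averages at least 1 CPM, a fixed set including Ripk1, Tnf and Il1b, and, per list, up to 4 called members and the 2 most abundant uncalled ones. Other genes were picked after their values were seen: Tagln, Colec12, Tmem86a, Gas6, Idi1, Abcg1, Cyp51, Sc5d, Nr4a1, Ccl6, Ccl22, Dst, Mt2, Ptges, Lrp1, Mmp14 and any of Rsad2, Ifit1, Mx1 and Ctsl outside that rule. The fit was tested on simulated data. Alternatives were DESeq2 1.42.0, other scalings, filters and thresholds, the 6 libraries alone, and each library left out. The length correction, a lowess trend on transcript length removed per library, and single libraries left out of the 6-library fit were added after seeing the data. Some items are not reported here.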

Additional observations from a re-analysis of the deposited data

Results flagged for a closer look

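Signal appeared on the Y chromosome, outside the autosomal measurement. Ddx3y, Eif2s3y, Kdm5d and Uty summed to a mean of 205.5 CPM in the T169A LPS/5z7 libraries, above the mean of 0.0943 CPM in B6 libraries. The same held in all 18 libraries: the sum was 193 to 253 CPM in T169A libraries and at most 0.178 CPM in B6 libraries, while Xist was at most 1.11 CPM in T169A and at least 348 CPM in B6 libraries. With LPS/5z7, 7 non-autosomal genes passed the test, 5 on Y and 2 on X (Xist and Eif2s3x). Sex and genotype cannot be told apart in these samples.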

How the results depend on the processing

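The count of 14 autosomal genes became 35 with DESeq2 (24 lower, all 14 among them), 29 without a filter on low counts (11 of the 14 among them), 24 at an adjusted p of 0.1, 24 with the length correction and 201 in the fit on the 6 libraries alone. Leaving out 1 library gave 9 to 12 genes. It was 14 with DESeq2 size factors, 16 by library size, 15 with 1 CPM in 3 libraries, 13 adjusted over autosomal genes and 12 with a fold of at least 1.5. In the 6-library fit the count of 201 became 53 with the length correction and 24 to 2041 with 1 library left out. The difference of genotype differences called 0 genes against LPS under every alternative run, and against unstimulated cells 0 under every alternative except DESeq2, with 1. Over 88 named genes and 14 alternatives, 1197 of 1230 values kept their side of the threshold, 32 lost it, 1 (Pf4, in the 6-library fit) gained it and 0 changed sign with a call. Printed genes outside those 88 also gained a call. Colec12, Tagln, Tmem86a, Idi1, Ctsl and Nr4a1 gained it with DESeq2 and in the 6-library fit, and Cyp51 and Sc5d with DESeq2. Dst, Mt2, Abcg1, Ccl6, Ccl22, Lrp1 and Mmp14 gained it in the 6-library fit, and Tmem86a, Dst, Idi1 and Abcg1 with the length correction. No paired analysis was possible for T169A against B6 because the columns carry no replicate letter and the genotypes share none in the titles. A replicate block of libraries adjacent in running number, run for the differences of differences alone, called 0 and 0; their correlations ran from -0.05 to 0.46, and 9 of 18 libraries were closest to their own set. Before TMM scaling, genes under 0.105 to 0.176 CPM are below 3 counts here.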

Other observations

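Besides the called genes, Lars2, Mir6236 and Gm15564 were the only autosomal genes with a mean of at least 10 CPM over both groups and a log2 fold change of at least 1 in size. They were picked after their values were seen. Lars2 had 137, 52.2 and 52.9 CPM in T169A libraries and 1153, 167 and 54.8 CPM in B6 libraries, Mir6236 had 93.2, 26.5 and 30.4 CPM in T169A and 738, 107 and 32.3 CPM in B6 libraries, and Gm15564 had 17.1, 5.38 and 5.64 CPM in T169A and 152, 22.2 and 6.72 CPM in B6 libraries. All 3 followed the same order within each group, with B6 library 3 far above the others, and the groups overlapped.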
